A study of Mus musculus with 9 samples.

Results

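ZBP1 and the genes of necroptosis were followed as 4 transcripts, Zbp1, Ripk3, Mlkl and Casp8, chosen by gene symbol. All 4 were found among the 1710 genes listed in the deposited table. RNA was sequenced from wild-type mouse tissue labelled "brain ctx", taken at the centre of the infected area 10 days after a stereotaxic injection. The protocol label speaks of a viral injection for every library, those of PBS included. The labels put 3 libraries in each of 3 groups, PBS (phosphate-buffered saline), LowDose and HighDose. The agent named in the title is AAV, adeno-associated virus, a gene therapy vector with a single-stranded DNA genome. The sources used here do not give the amounts behind the dose labels, the strain, the age, the promoter in the vector, or whether libraries of a group came from separate animals. Values of n, SD, SE and p therefore refer to libraries, whose spread may be technical. All 3 groups shared the genotype, the injection and the time of harvest, and no uninjected tissue was analysed here.

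ZBP1 is an interferon-induced sensor of left-handed (Z-form) DNA and RNA. Through short motifs called RHIMs it binds RIPK3, a kinase, which phosphorylates MLKL. Phosphorylated MLKL assembles at the plasma membrane and breaks it, a lytic death called necroptosis. Caspase-8 is a protease that starts apoptosis and, by cleaving RIPK1 and RIPK3, holds necroptosis back. In brain tissue the route is studied in viral infection and neuroinflammation.

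Library totals were 18344070 to 21688250 reads or read pairs in PBS, 18715622 to 23725634 in LowDose and 20903896 to 23079530 in HighDose. Mean FPKM of every listed gene differed 2-fold or more between some pair of groups, so that a difference is a property of all 1710 genes. Of 1583 genes tested, 97% were called in HighDose against PBS (edgeR quasi-likelihood test, adjusted p under 0.05), 86.3% higher and 10.7% lower. With the scaling method TMM within the listed genes, 600 were called higher and 464 lower (605 and 455 with DESeq2 size factors, 607 and 454 with the sum of the listed counts), and under TMM the median log2 change of all tested genes moved to 0.19, against 1.90 with library totals. A call in HighDose is thus the rule in this table, and the sizes of the changes carry the comparison. The listed genes held 1.54% to 1.61% of all counts in PBS libraries, 1.34% to 1.38% in LowDose and 3.90% to 6.04% in HighDose. A change scaled within the list is relative to the other listed genes. A lower call on that scale need not be a lower share of the library total. The tissue label could not be checked with cortical or general neuronal markers, since 0 of 4 and 0 of 4 of them were listed. All 8 striatal markers were listed, with a summed level of 513 to 768 CPM (counts-per-million of the library total) in PBS, 189 to 424 CPM in LowDose and 172 to 209 CPM in HighDose.

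By the estimate of the log2 change, the sensor came first of the 4 genes. Zbp1 (ENSMUSG00000027514, mm10 chr2:173206612-173218923, minus strand) had 1603, 1958 and 2642 counts in HighDose replicates 1 to 3, or 70.1, 93.7 and 114 CPM, against 4, 8 and 5 counts in PBS replicates 1 to 3, or 0.218, 0.387 and 0.231 CPM. The groups stood far apart, and each HighDose library held more Zbp1 counts than the 3 PBS libraries together, 17. The log2 change was 8.34 ± 0.35 (SE), with adjusted p = 9.56e-24 (edgeR), which ranked 24 from the top of the 1583 tested genes. The ratio of summed counts per library total was 331 (95% counting interval 207 to 569, counting error only). In the 19 alternative fits the log2 change lay between 6.60 and 8.65 and passed each time, with adjusted p from 4.72e-116 to 7.28e-10. These fits, and those of the other genes below, reuse the same libraries and are no independent repeats. Zbp1, Mlkl and Ripk3 also passed the filter on low counts only through their HighDose values.

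The executioner followed. Mlkl (ENSMUSG00000012519, chr8:111311797-111338177, minus strand), the pore-forming end of the route, had 193, 247 and 391 counts in HighDose (8.44, 11.8 and 16.9 CPM), against 2, 2 and 3 counts in PBS (0.109, 0.0968 and 0.138 CPM). In PBS it was thus close to undetected, at or under the floor of 3 counts in every library. It rose by 6.68 ± 0.46 on the log2 scale (adjusted p = 2.31e-17, edgeR), rank 89 of 1583. The ratio of summed counts was 108, with a wide counting interval of 52.1 to 269 that follows from the 7 counts in PBS. This interval overlaps that of Zbp1, and the order of Zbp1 and Mlkl was not tested. The 19 alternatives gave log2 changes of 3.51 to 6.89, all of them past the threshold, with adjusted p from 1.02e-47 to 1.15e-07. The lowest came from limma on log2(FPKM + 0.5), where the added 0.5 shrinks the change of a gene near 0.

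Ripk3 (ENSMUSG00000022221, chr14:55784995-55788865, minus strand), the kinase between sensor and executioner, had a smaller log2 change than either and stayed scarce. It had 14, 25 and 34 counts in HighDose (0.613, 1.20 and 1.47 CPM), against 3, 1 and 9 counts in PBS (0.164, 0.0484 and 0.415 CPM). The groups did not overlap, but PBS replicate 3 lay nearer to HighDose replicate 1 than to PBS replicate 2 in CPM. The log2 change was 2.33 ± 0.63 (adjusted p = 0.000694, edgeR), and the ratio of summed counts was 5.10 (2.80 to 10.03). Without PBS replicate 3, which held 9 of the 13 PBS counts, the log2 change was 3.33 (adjusted p = 0.000199). The call was lost in each of the 3 scalings within the listed genes, at 0.61 with adjusted p = 0.386 under TMM, 0.64 with 0.358 under DESeq2 size factors and 0.64 with 0.360 under the sum of the listed counts. Those 3 values set Ripk3 against the other listed genes, whose share of all counts was itself higher in HighDose. Over the 18 alternatives adjusted p ran from 9.67e-05 to 0.386.

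Casp8 (ENSMUSG00000026029, chr1:58795374-58847503, plus strand), the brake on necroptosis and starter of apoptosis, was the member with the most counts in PBS. Its counts were 258, 313 and 445 in HighDose (11.3, 14.97 and 19.3 CPM), against 51, 59 and 62 in PBS (2.78, 2.86 and 2.86 CPM). PBS libraries hardly differed among themselves, and every HighDose library lay above them. Casp8 rose by 2.42 ± 0.28 on the log2 scale (adjusted p = 1.75e-10, edgeR), and by 0.70 (adjusted p = 0.00279) under TMM, which was the lowest of the 19 alternatives. All 19 passed, with adjusted p from 5.54e-17 to 0.00310.

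The 4 genes thus fell into a pair with log2 changes of 8.34 and 6.68 and a pair with 2.42 and 2.33. The second pair ranked 599 and 624 of 1583 and lay not far above the median of all tested genes, 1.90. In 4 of 4 genes every HighDose library lay above every PBS library, which was also true of 85.8% of the tested genes, while 10.3% had every HighDose library below every PBS library. A call or a separation of the groups was thus nothing particular to the 4 genes, and differences in change between the genes were not tested.

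**Figure D1:**
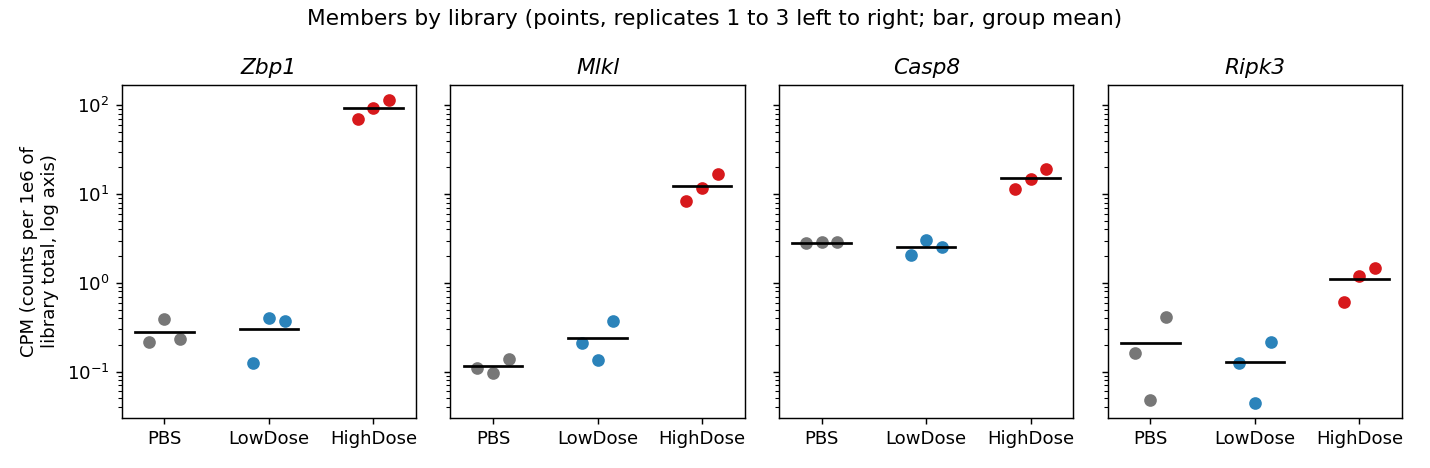
CPM (log axis) of Zbp1, Mlkl, Casp8 and Ripk3 in the 3 libraries of PBS, LowDose and HighDose; points are libraries and bars are group means. HighDose points lie above all others in each panel, most widely for Zbp1 and Mlkl, while LowDose and PBS points overlap.

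**Figure D2:**
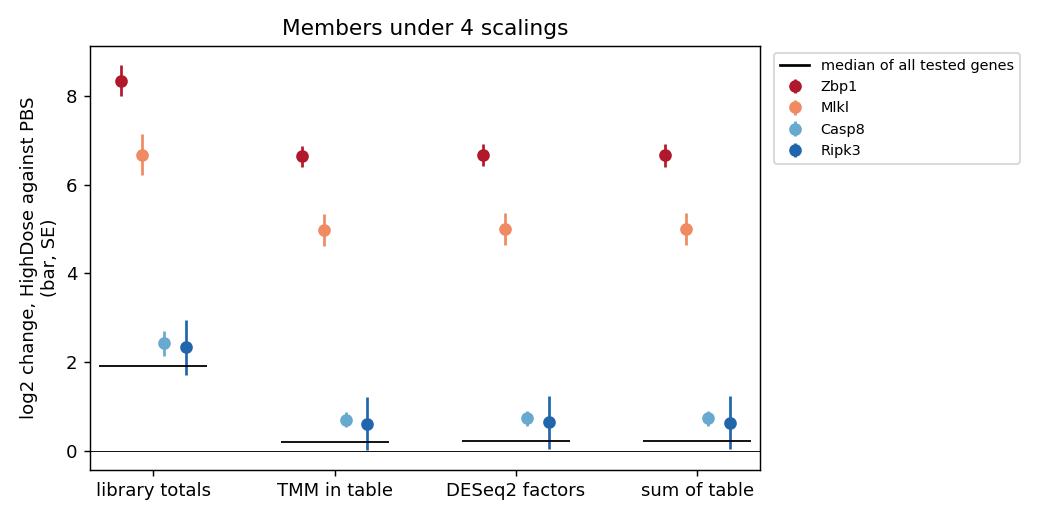
Log2 change in HighDose against PBS (points, with SE as bars) of the 4 genes under library totals and under 3 scalings within the listed genes; black lines mark the median of all tested genes. Zbp1 and Mlkl stay far above the median under each scaling, and Casp8 and Ripk3 stay close to it.

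HighDose replicate 3 was the highest and replicate 1 the lowest library of its group for each of the 4 genes. The highest value was 1.63 times the lowest for Zbp1, 1.71 times for Casp8, 2.01 times for Mlkl and 2.41 times for Ripk3. The share of all counts that fell on the listed genes had the same highest and lowest library, at 6.04% and 3.90%, a ratio of 1.55. Summed markers of monocytes and macrophages, T cells, NK cells and B cells were also higher in HighDose. The 5 listed of 6 monocyte and macrophage markers summed to 111 to 197 CPM in HighDose and 2.52 to 2.999 CPM in PBS. The 8 listed of 9 T cell markers summed to 14.5 to 28.8 CPM in HighDose and 0.484 to 0.968 CPM in PBS, where Cd3d was at 0 counts. The 4 NK cell markers summed to 2.84 to 7.05 CPM in HighDose and 0.242 to 0.599 CPM in PBS, and the 3 B cell markers to 2.32 to 4.07 CPM and 0.109 to 0.339 CPM. The 5 listed of 8 microglia markers summed to 229 to 278 CPM in HighDose and 122 to 155 CPM in PBS. Gfap, the 1 listed of 4 astrocyte markers, was at 374 to 534 CPM in HighDose and 113 to 146 CPM in PBS. The 3 listed of 4 oligodendrocyte markers summed to 797 to 1089 CPM in HighDose and 1663.4 to 2182.1 CPM in PBS. In LowDose, T cell markers summed to 1.07 to 1.43 CPM, above PBS, with Cd8b1 at 0 counts. NK cell markers summed to 0.0843 to 0.107 CPM, below PBS but under the level of 3 counts per library (0.126 to 0.160 CPM in LowDose). Both sums rest on few counts, and neither difference was tested. Oligodendrocyte markers summed to 1003.5 to 1221 CPM, below PBS. Every LowDose library lay above every PBS library for 6.57% of the tested genes and below for 13.1%. None of the neutrophil and endothelial markers was listed. The part of these cells in the changes of the 4 genes was not tested. In bulk tissue, fewer or more cells of a type and less or more RNA per cell cannot be told apart.

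In LowDose none of the 4 genes was called against PBS (0 of 4 by edgeR, by the DESeq2 Wald test and by limma, and 0 of 4 at an unadjusted p under 0.05 in edgeR). Zbp1, Mlkl and Ripk3 passed the filter on low counts through their HighDose values, and in a fit of LowDose and PBS alone only Casp8 was tested. With 1 to 9 counts a library, these 3 genes could show only large changes. Of all tested genes 2.59% were called, 0.442% higher and 2.15% lower, and 185 of 1583 had an unadjusted p under 0.05 (edgeR). None of the 4 genes had every LowDose library above or below every PBS library, as 6.57% and 13.1% of the tested genes had. Zbp1 had 3, 9 and 7 counts in LowDose libraries, against 4, 8 and 5 in PBS, a log2 change of 0.08 ± 0.51 (adjusted p = 0.986, edgeR). The ratio of summed counts was 1.05 with a counting interval of 0.516 to 2.15. Ripk3 had 3, 1 and 4 counts in LowDose, against 3, 1 and 9 in PBS (log2 -0.74 ± 0.81, adjusted p = 0.856), and its sign turned to 0.26 without PBS replicate 3. Casp8 had 49, 68 and 47 counts in LowDose, against 51, 59 and 62 in PBS (log2 -0.16 ± 0.29, adjusted p = 0.925), with a ratio of 0.894 (0.718 to 1.11). For each of these 3 genes LowDose and PBS values overlapped.

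Mlkl had the highest log2 change of the 4 in LowDose. It had 5, 3 and 7 counts in LowDose (0.211, 0.135 and 0.374 CPM), against 2, 2 and 3 in PBS, a log2 change of 0.98 ± 0.66 that did not pass (adjusted p = 0.655, edgeR). PBS replicate 3, at 0.138 CPM, lay above LowDose replicate 2. The ratio of 15 to 7 summed counts was 2.01 with an interval of 0.772 to 5.83. A doubling and no change were therefore both within counting error at this depth. Its sign was positive in 18 of 18 alternatives, with adjusted p from 0.247 to 1. They refit the same few counts, so their shared sign is no repeat of the result. The libraries of LowDose and PBS with the same replicate number deviated together, and a block for the number called 62 genes in place of 41 and still 0 of the 4.

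All 4 genes were also higher in HighDose than in LowDose. Zbp1 was higher by 8.27 ± 0.35 on the log2 scale, Mlkl by 5.70 ± 0.41, Ripk3 by 3.07 ± 0.67 and Casp8 by 2.58 ± 0.28, with adjusted p of 9.32e-24, 1.48e-16, 6.59e-05 and 4.05e-11 (edgeR). Of all tested genes 95.1% were called, 88.1% higher and 7.08% lower. Every HighDose library lay above every LowDose library for 4 of 4 genes and for 86.5% of the tested genes, with 6.32% the other way round. Under TMM the calls split into 565 higher and 461 lower, under DESeq2 size factors into 576 and 445, and under the sum of the listed counts into 524 and 524. Ripk3 again lost its call under TMM (1.32, adjusted p = 0.0955). The order of Ripk3 and Casp8 was the reverse of that against PBS, within their errors. The comparison shares its HighDose libraries with the one against PBS and is no independent repeat of it.

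Per length of transcript, the order of the 4 genes differed between the groups. In FPKM (fragments per kilobase of transcript, scaled to library size, as deposited), Casp8 led in PBS with 1.40 ± 0.115 (SD, n = 3), while Zbp1 at 0.233 ± 0.205, Ripk3 at 0.180 ± 0.210 and Mlkl at 0.0733 ± 0.0321 did not differ beyond their spread. The LowDose order had Casp8 first as well, at 1.35 ± 0.231 FPKM, and Zbp1 (0.220 ± 0.142), Mlkl (0.203 ± 0.101) and Ripk3 (0.107 ± 0.0961) again overlapping. In HighDose libraries Zbp1 led with 70.5 ± 17.3 FPKM. Casp8 at 7.87 ± 2.34 FPKM and Mlkl at 6.27 ± 2.16 FPKM overlapped across libraries, although Casp8 was above Mlkl within each library, and Ripk3 came last with 0.670 ± 0.372 FPKM.

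Within the 4 genes, Zbp1 made up 81.3% to 83.6% of the summed FPKM in HighDose libraries and 5.53% to 25.5% in PBS libraries. Casp8 made up 8.74% to 9.69% in HighDose libraries and 70.05% to 84.3% in PBS libraries. The share of Ripk3 was 0.511% to 0.992% in HighDose. On the scale of log2(FPKM + 0.5), the level of Zbp1 stood above that of Casp8 by 3.09, 3.18 and 3.01 in HighDose replicates 1 to 3, and Mlkl differed from Casp8 by -0.38, -0.32 and -0.26. Ripk3 differed from Casp8 by -2.92, -2.83 and -2.80 on this scale, and by -4.15, -3.58 and -3.29 without the added 0.5, which is close in size to the FPKM of Ripk3 itself (0.32, 0.63 and 1.06). The share of Ripk3 thus varied more over the HighDose libraries, relative to its size, than those of Zbp1, Mlkl and Casp8, and no test was made of these proportions.

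**Figure D3:**
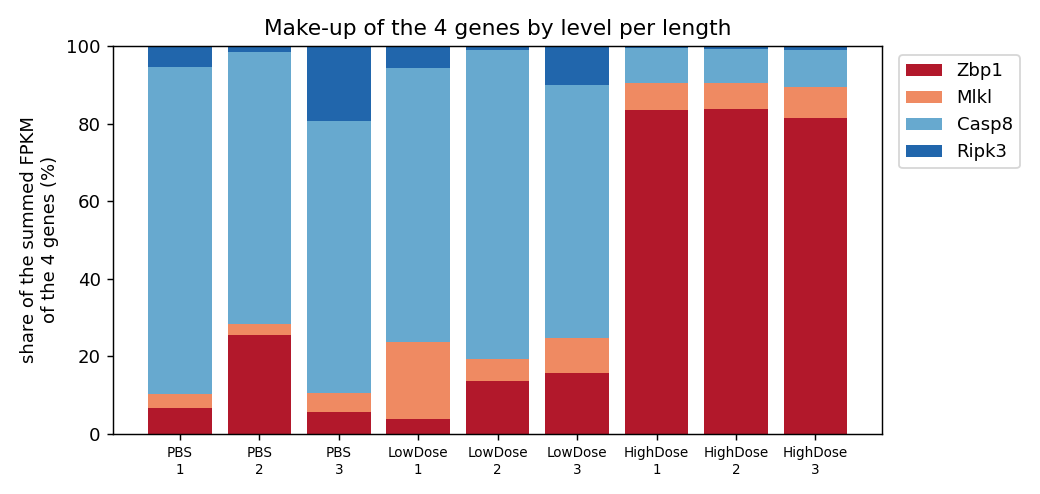
Share of each gene in the summed FPKM of Zbp1, Mlkl, Casp8 and Ripk3, by library (replicates 1 to 3 of each group). Casp8 fills most of each PBS and LowDose bar, and Zbp1 fills 81.3% to 83.6% of each HighDose bar.

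The counts and FPKM of a gene together give the mean transcript length the deposited values assume, since FPKM is the count divided by length and library total. The library totals were themselves set from genes with a single annotated transcript, as the median of count over FPKM and length. Around that median these genes scattered by 0.0113% to 0.0448% (scaled median absolute deviation), which is no separate check of the lengths. For Zbp1 it was 1339, 1295 and 1318 bases in HighDose replicates 1 to 3. These values lie between the lengths of the 2 coding transcripts of Zbp1 in GENCODE M21, 1989 bases for Zbp1-201 with 8 exons and 770 bases for Zbp1-202 with 4 exons. In PBS the values were 1982, 824 and 1921 bases, and in LowDose 2107, 1499 and 1133 bases. With 3 to 9 counts behind each, they scatter over the whole range, and no difference from HighDose can be read from them. Mlkl stood at 1978, 1979 and 1979 bases in HighDose, next to the 1976 and 2003 bases of its long coding transcripts. Casp8 stood at 1980, 1981 and 1863 bases and Ripk3 at 1914, 1898 and 1390 bases. The sources used here do not say how reads were assigned to transcripts, so the lengths describe the deposited values and are no measurement of isoforms.

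**Figure D4:**
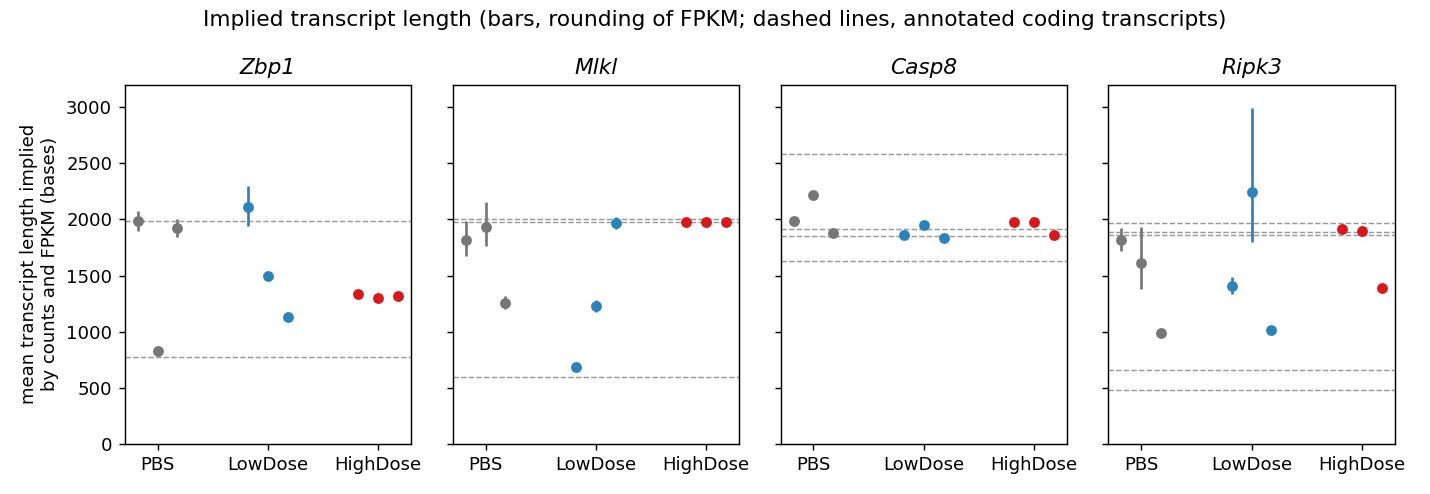
Mean transcript length in bases implied by count, FPKM and library total, by library and group; bars show the range that rounding of FPKM to 2 decimals allows, and dashed lines are coding transcripts in GENCODE M21. HighDose libraries hold Zbp1 at 1295 to 1339 bases, between its coding transcripts of 770 and 1989 bases, and Mlkl at 1978 to 1979 bases.

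The coding transcripts of Zbp1 are shown because the level per length depends on how reads are shared between them. They share their first 460 coding bases and part after exon 3. Zbp1-201 reads on for 411 codons in all, and Zbp1-202 ends after 187. Below are the last 30 coding bases of exon 3 (chr2:173215677-173215706, minus strand) in lower case and the first 60 coding bases of the fourth exon of each transcript in capitals, 5′ to 3′, from GENCODE M21 on GRCm38. The capitals lie at chr2:173212207-173212266 in Zbp1-201 and at chr2:173213850-173213909 in Zbp1-202.
Zbp1-201: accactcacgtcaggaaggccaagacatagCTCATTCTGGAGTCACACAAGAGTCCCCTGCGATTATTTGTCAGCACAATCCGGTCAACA
Zbp1-202: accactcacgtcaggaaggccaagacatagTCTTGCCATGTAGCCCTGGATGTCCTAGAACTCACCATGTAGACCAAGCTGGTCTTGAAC
The capitals of Zbp1-202 shared a word of 16 bases, on either strand, with transcripts of 119 other genes of 55449 searched, and those of Zbp1-201 with 1. The deposited counts of Zbp1, Ripk3, Mlkl and Casp8 were whole numbers in all 9 libraries. On the annotation, Mlkl overlaps the processed pseudogene Gm45712 on the other strand and Casp8 the unverified gene model Gm37760 on the same strand, so reads in the overlaps could belong to either gene. Zbp1 and Ripk3 overlap no other gene.

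Promoter windows were looked up because the 4 genes were all higher in HighDose. RefSeq windows of 250 bases before the annotated start were matched for Casp8, Mlkl and Ripk3 (GRCm38.p6), and Zbp1 was not matched. Both strands were searched for 4 motifs. The first was GAAA, any 2 bases and GAAA, the core of the interferon-stimulated response element, and the second AANNGAAA, a looser form of it that the first contains. The others were TTCNNNGAA, the GAS element bound by STAT dimers, and GGGA, any base and TTTCC, a form of the NF-kB site. The share of all 32851 windows of this length that held them was 2.98%, 21.3%, 7.02% and 0.356%. The Casp8 window held AANNGAAA at 2 places, from -171 to -164 and from -108 to -101 relative to the start, and none of the other motifs. The Mlkl and Ripk3 windows held none of the 4. A match is a description and not a site. Another 2 coding transcripts of Casp8 begin upstream of this window. The windows of Casp8 and Mlkl are printed as an example of a small and a large change, with matches in capitals.
Casp8, chr1:58802252-58802501, plus strand: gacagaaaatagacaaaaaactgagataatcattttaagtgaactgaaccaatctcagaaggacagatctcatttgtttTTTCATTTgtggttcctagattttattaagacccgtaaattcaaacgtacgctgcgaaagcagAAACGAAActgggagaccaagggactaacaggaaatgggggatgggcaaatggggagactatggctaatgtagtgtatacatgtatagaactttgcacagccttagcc
Mlkl, chr8:111338206-111338455, minus strand: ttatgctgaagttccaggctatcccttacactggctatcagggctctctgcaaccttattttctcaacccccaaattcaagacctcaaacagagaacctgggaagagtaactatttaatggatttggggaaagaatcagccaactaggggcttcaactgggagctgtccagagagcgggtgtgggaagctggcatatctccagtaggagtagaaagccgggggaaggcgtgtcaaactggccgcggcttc

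The wider route was described with a list of 76 further genes, of which 36 were listed in the table and 34 tested. All 34 tested genes were called higher in HighDose than in PBS with library totals, with a median log2 change of 2.38, against 1.90 and 86.3% called higher for all tested genes. Under TMM 19 were called higher and 6 lower, and the list median was 0.67, against 0.19 for all tested genes. The 6 called lower were Bid, Apaf1, Ifnar2, Traf2, Tnfaip3 and Il33. In CPM each of them had every HighDose library above every PBS library. The list median is below the changes of Zbp1 and Mlkl, and close to those of Casp8 and Ripk3.

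Among RHIM proteins, Ripk1, the kinase that couples death receptors to caspase-8 or RIPK3, was at 15.4, 20.6 and 28.8 CPM in HighDose, against 7.20, 6.73 and 6.64 CPM in PBS. It rose by 1.65 ± 0.24 on the log2 scale (adjusted p = 7.36e-08, edgeR), less than the table's median, and stood at -0.08 under TMM (adjusted p = 0.627). Ticam1, the adaptor of TLR3 with a RHIM, and Adar, which edits double-stranded RNA and limits ZBP1 activation, were not among the listed genes. They have no values here, and the listed genes all differed 2-fold or more between some pair of groups.

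Among the death ligands, Tnf and Fasl were scarce in PBS and Tnfsf10 was not. Tnf, the cytokine that triggers the classical route, had 139 counts over the HighDose libraries and 6 over PBS, a ratio of 21.0 (9.42 to 58.3). Fasl, the ligand of Fas, had 95 and 2 counts, a ratio of 43.1 (11.6 to 361). Tnfsf10, which encodes TRAIL, rose by 2.96 ± 0.27 on the log2 scale to 30.1 ± 7.74 CPM in HighDose, against 3.88 ± 0.385 CPM in PBS. Ifng, a T and NK cell cytokine, had 44 counts over HighDose and 1 over PBS, a ratio of 39.9 (6.81 to 1613), and did not pass the filter on low counts, nor did Ifnb1. With no filter, Ifng was called (log2 4.87, adjusted p = 5.49e-05, edgeR), as was Ifnb1 (adjusted p = 2.17e-06). Ifnb1, a type I interferon, had 57 counts over HighDose and 0 over PBS, at least 17.2-fold higher against a floor of 3 counts over the group.

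All 7 tested receptors were called higher with library totals, as were 86.3% of all tested genes, from 0.98 for Ifnar2, a chain of the type I interferon receptor, to 3.38 for Tnfrsf10b, the mouse TRAIL receptor. Tlr3, an endosomal sensor of double-stranded RNA that can engage RIPK3 through Ticam1, rose by 2.74 ± 0.24 to 93.98 ± 29.5 CPM in HighDose, against 14.0 ± 1.70 CPM in PBS. Tnfrsf1a, the main TNF receptor, rose by 2.20 ± 0.23 and Fas by 2.41 ± 0.34. Under TMM Ifnar2 was called lower (-0.71, adjusted p = 0.00019) and Tlr4 stood at -0.02.

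The 2 tested partners of caspase-8 had a median log2 change of 1.26 and the 4 tested of 22 brakes 1.89, against 4.30 for the 3 tested ligands. Over PBS, Tnf and Fasl had 6 and 2 counts and Tnfsf10 235, while these partners and brakes had from 45 (Ikbke) to 997 (Cflar). The medians thus rest on unlike baselines, and their differences were not tested. Cflar, which encodes cFLIP and forms with caspase-8 the dimer that restrains necroptosis, was at 45.95 ± 12.4 CPM in HighDose and 16.5 ± 0.672 CPM in PBS, a log2 change of 1.48 ± 0.23 (adjusted p = 1.41e-07, edgeR) that was -0.24 under TMM (adjusted p = 0.129). Traf2, an adaptor that recruits cIAP ligases, stood at 1.04 ± 0.23, and at -0.67 under TMM with a call in the lower direction (adjusted p = 0.000271). Among the brakes, Birc3, which encodes the ligase cIAP2, rose by 2.78 ± 0.31 and Ikbke, a kinase that phosphorylates RIPK1, by 2.20 ± 0.41, a call that was lost under TMM (0.52, adjusted p = 0.174 by edgeR). Rnf31, the catalytic subunit of the linear ubiquitin ligase, rose by 1.58 ± 0.22, but stood at -0.13 under TMM (adjusted p = 0.360). Tnfaip3, a ubiquitin editor, rose by 1.18 ± 0.23 and was called lower under TMM (-0.53).

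Genes of the neighbouring death routes overlapped in size, with 3 of 9 apoptosis genes and 9 of 11 pyroptosis genes tested. Of the apoptosis genes downstream of caspase-8, Bid, the caspase-8 substrate that links to mitochondria, rose by 1.28 ± 0.23 and the apoptosome scaffold Apaf1 by 1.28 ± 0.23. Under TMM Bid and Apaf1 were called lower (-0.44 and -0.43). The 9 tested pyroptosis genes had a median of 2.93 with library totals, and under TMM Pycard (0.29), Nlrp3 (0.13) and Il1a (0.18) lost their calls. Casp4, which in mouse encodes caspase-11, a sensor of lipopolysaccharide, had 737 counts over HighDose and 12 over PBS (log2 5.75 ± 0.46), and Gsdmd, the pore protein of pyroptosis, rose by 3.44 ± 0.33 to 11.6 ± 2.32 CPM, against 1.05 ± 0.345 CPM in PBS. Il33, an alarmin set free by lytic death, changed least of the 9 (1.04 ± 0.22) and was called lower under TMM (-0.68). All 5 tested transcription factors of interferon signalling were higher under each of the 4 scalings, with Irf1 at 4.60 ± 0.25 and Irf7 at 6.19 ± 0.29.

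In LowDose against PBS, 0 of the 34 genes were called (2 at an unadjusted p under 0.05 in edgeR), with a median log2 change of -0.02, against -0.03 for all tested genes. Of all 1583 tested genes, 2.59% were called and 185 had an unadjusted p under 0.05. The 2 among the 34 were Tnfrsf10b (0.95, adjusted p = 0.391) and Irf7 (-0.80, adjusted p = 0.104), both named after their values were seen. Irf7 was called lower with the replicate block (-0.78, adjusted p = 0.0182) and without PBS replicate 1 (-0.98, adjusted p = 0.0447). In HighDose against LowDose all 34 were called higher, with a median of 2.44, against 88.1% called higher and a median of 1.88 for all tested genes. Under TMM 17 of the 34 were called higher and 5 lower.

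The file's own KEGG annotation, consulted after the data were seen, placed 40 listed genes under necroptosis, among them the 4 members and 27 of the 36 others described above. With library totals, 36 of 37 tested were called higher and 0 lower in HighDose against PBS, with a median of 2.20, where 86.3% of all tested genes were called higher with a median of 1.90.

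**Figure D5:**
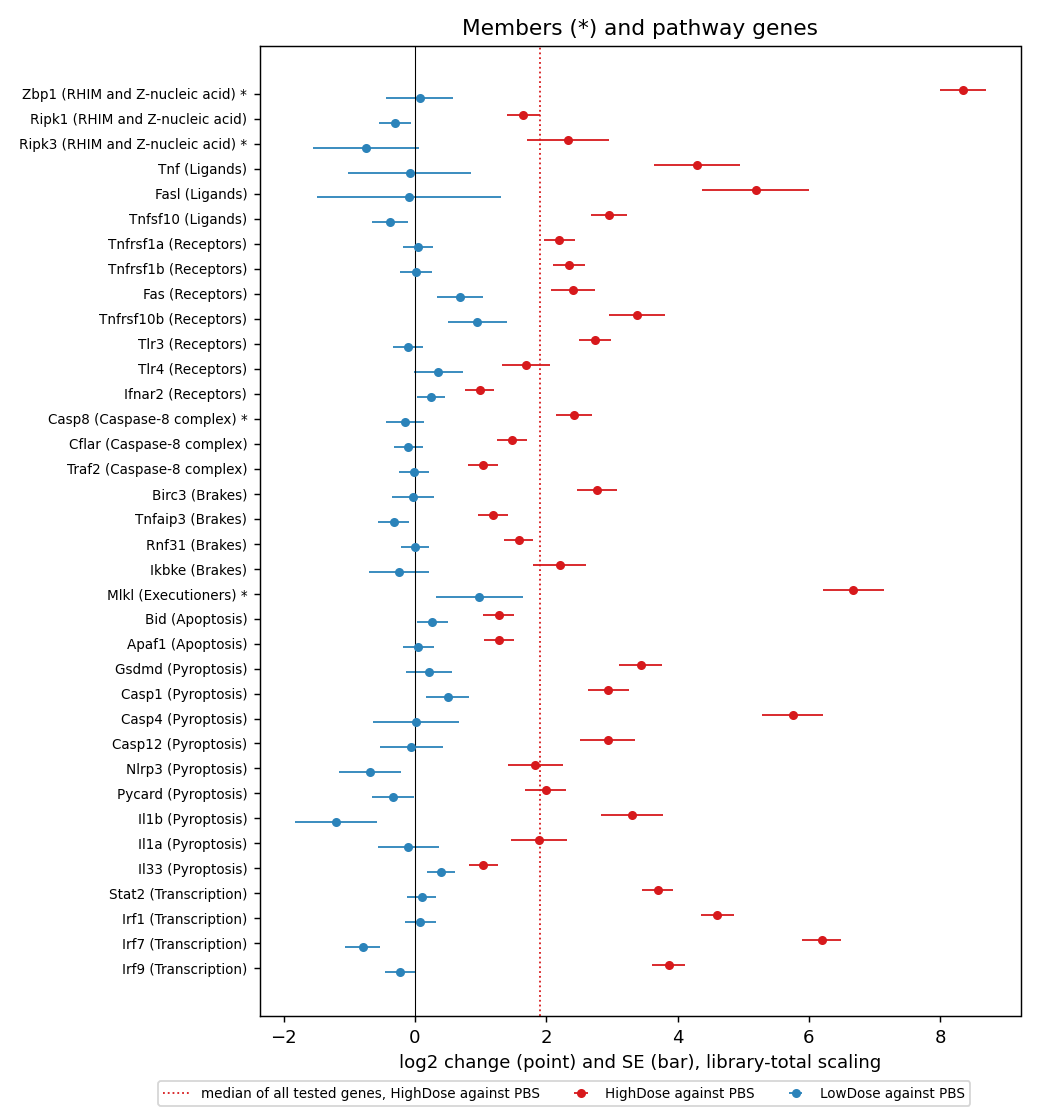
Log2 change (point) with SE (bar) of the 4 genes, marked with an asterisk, and 32 of the 34 tested genes of the route, grouped by role, in HighDose against PBS (red) and LowDose against PBS (blue); the dotted line is the median of all tested genes in HighDose, 1.90. Zbp1 and Mlkl are the 2 highest of the 36 drawn, and LowDose values scatter around 0.

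The genes whose pattern over the 9 libraries was most like each member differed between members. Likeness was Pearson's r of log2(CPM + 0.5) over all 9 libraries and 1255 candidate genes, as a description, since all high values come from the step between HighDose and the other groups. Zbp1 was closest to Oas1a (r = 0.9995), Ifit3 (0.9995) and Oasl2 (0.9994), all interferon-induced antiviral genes. Mlkl was closest to Gpr171 (0.999), Apol9a (0.998) and AA467197 (0.998), and Casp8 to Tor1aip1 (0.999), Clic1 (0.999) and the adhesion molecule Icam1 (0.998). Ripk3, with the fewest counts, had lower values, with the matrix protein gene Tnc at 0.984, the chemokine receptor Cxcr4 at 0.978 and Slc12a7 at 0.977. Among the members themselves r was 0.994 for Zbp1 and Mlkl, 0.990 for Zbp1 and Casp8, 0.984 for Mlkl and Casp8, and 0.903 to 0.927 for Ripk3 with the others.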

How the data were processed

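The authors deposited estimated counts and FPKM per gene and library. The submitters' processing notes name mm10, edgeR and DESeq2 without a role. Not given in the sources used here were the aligner, the read counter, the strandedness and the rule behind the gene list. Counts were rounded to whole numbers (7.66% to 13.98% of values per library were not whole). Totals per library came from single-transcript genes of GENCODE M21 (FPKM from 5, counts from 100, length from 600 bases), as the count over FPKM and length. Of the listed identifiers 1704 were found in M21, whose symbols were used.

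Genes were filtered with filterByExpr (minimum count 10) and compared with the quasi-likelihood test of edgeR 4.0.16 (R 4.3.3) in 1 model of 3 groups scaled by library totals, with Benjamini-Hochberg adjustment over 1583 genes. SEs were taken from the log2 change and F statistic. Counting intervals are exact Poisson intervals at 95%, and they cover counting error of reads or read pairs only. Scaling was also done by TMM, by size factors of DESeq2 1.42.0 and by the sum of the table. Further alternatives were other filters, the DESeq2 Wald test, limma 3.58.1 on log2(FPKM + 0.5), only the groups compared, a replicate block, adjustment over 55536 annotated genes and leaving out each library. Same-numbered libraries of LowDose and PBS correlated in their deviations from group means (r = 0.246, 0.165 and 0.137). These numbers entered as a pairing in the replicate block only, and the main model holds no block. No label gives the source of the pairing.

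The members, the gene list of the route, the marker lists and the library-total scaling were chosen with earlier results of these data known. Named were the 4 members, genes of the route by role, and for each member the 3 most similar genes with mean CPM of at least 1. Values of some genes of the route are not reported here. Sequences are from RefSeq (GRCm38.p6) and GENCODE M21. Figures used Python 3.11.15 and matplotlib 3.10.9.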

Additional observations from a re-analysis of the deposited data

How the results depend on the processing

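Zbp1, Mlkl and Casp8 kept direction and call in HighDose against PBS and against LowDose in all 19 alternatives of each, and the 4 genes were called in none in LowDose. Ripk3 lost its call under the scalings within the listed genes: 0.61, 0.64 and 0.64 against PBS, and 1.32, 1.36 and 1.19 against LowDose, in the order TMM, size factors of DESeq2 and listed sum. TMM and size factors take most listed genes as unchanged, and the listed sum holds their total constant. Ripk3 did not pass the filter of 1 CPM in 3 libraries and has no value there. In a fit of LowDose and PBS alone, Zbp1, Mlkl and Ripk3 did not pass the filter. Of the 34 genes of the route, TMM called 22 in HighDose against LowDose (17 higher, 5 lower). In LowDose against PBS, 1 of them was called under the listed sum (Il33, 0.61, adjusted p = 0.0346 by edgeR), 1 with the replicate block and 0 to 1 without single libraries. Genes called in LowDose against PBS were 41 (7 higher, 34 lower), and 6 under TMM (3 and 3), 6 under DESeq2 size factors (3 and 3), 11 under the listed sum (9 and 2), 62 with the replicate block, 8 with adjustment over all annotated genes and 26 to 79 without single libraries, the lowest without LowDose replicate 2 and the highest without LowDose replicate 1. With CPM in place of FPKM the log2 ratio to Casp8 in HighDose was 2.58 for Zbp1 (3.09 with FPKM) and -3.31 for Ripk3 (-2.85 with FPKM), and a pseudocount of 1 gave -2.40 for Ripk3. Without single HighDose libraries these ratios ran from 3.05 to 3.13 and from -2.88 to -2.82. For HighDose, same-numbered libraries did not all correlate (r from -0.00571 to 0.151 with PBS and from 0.0142 to 0.183 with LowDose), and the replicate block changed no call of the 4 genes, with 1537 genes called against PBS in place of 1535 and 1515 against LowDose in place of 1506. Depth limits Zbp1, Mlkl and Ripk3 in PBS and LowDose most, where 1 to 9 counts per library stand behind each value.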
